A study of Mus musculus with 9 samples.

Results

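Transcripts of insulin-like growth factor 1, its receptor and 6 of its binding proteins were measured in cells grown from mouse pancreatic tumors. The 8 genes, Igf1, Igf1r, Igfbp2, Igfbp3, Igfbp4, Igfbp5, Igfbp6 and Igfbp7, were chosen by name and all 8 were found among the 18049 genes of the deposited table. The 9 libraries belonged to 1 group of mouse primary cells cultured from pancreatic tumors (MPC). Their genotype was WTg, a cross of EL1-Luc/EL1-Tag with CAG-Mettl3 mice. In this cross the elastase I promoter (EL1), which is active in pancreatic acinar cells, drives luciferase and the SV40 large T antigen, and the ubiquitous CAG promoter drives Mettl3, the m6A methyltransferase. The study's methods describe minced tumors, passage of the cells that attached, and isolation of separate colonies in cloning cylinders. The study calls the lines clones, and that word is used here. The labels give no age, give the treatment as none, and give no second group. A protocol field of the same labels names the inhibitor NMS-P937, and the libraries were taken as untreated. All 9 libraries carried both transgenic alleles according to the labels.

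IGF1 is a secreted growth factor that binds the IGF1 receptor, a tyrosine kinase of the plasma membrane, which signals through insulin receptor substrates and Shc to the PI3K-AKT-mTOR and Ras pathways. Most IGF1 outside cells is held by IGF binding proteins, which keep the ligand from the receptor, carry it, and release it when proteases such as pappalysin cut them. In many tissues IGF1 is made by macrophages and fibroblasts and acts on neighbouring cells. In the pancreas the receptor is present on exocrine and stromal cells, and IGF1 from stroma is a known growth and survival signal for tumor cells.

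Promoter windows of the 8 genes, 250 bases before to 50 bases after each start site, were matched by symbol in the RefSeq table of GRCm38.p6. All 8 genes matched, with 9 windows, since Igfbp2 had a pair. Stretches of 4 of them are shown because Igf1 and Igfbp4 had positive correlations with the macrophage markers, and Igf1r and Igfbp6 with the fibroblast markers, in the values that follow. Igfbp5 also had a positive correlation with the macrophage markers and is not shown, and its window held none of the motifs named below. Capitals mark the letters of 4 motifs, each searched on both strands. The first, the core element that places the start of transcription, was searched as TATAAA and is called the TATA box. The GC box, bound by Sp1, was searched as GGGCGG. The PU box, the core bound by the macrophage factor PU.1, was searched as GAGGAA. The AP-1 site, bound by Fos and Jun proteins, was searched as TGACTCA. None of these motifs lies within another. All stretches lie on the plus strand.
Igf1, chr10:87861039-87861068: gggacgatggggGAGGAAgggaaggagctg
Igfbp4, chr11:99041204-99041233: ccagggggccggTATAAAgtcccgggagcc
Igf1r, chr7:67952007-67952256: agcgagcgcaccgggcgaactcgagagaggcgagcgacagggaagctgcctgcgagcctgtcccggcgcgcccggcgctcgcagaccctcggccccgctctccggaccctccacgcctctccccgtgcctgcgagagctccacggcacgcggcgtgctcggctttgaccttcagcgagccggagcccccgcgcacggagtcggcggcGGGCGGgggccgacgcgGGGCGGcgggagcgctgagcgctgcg
Igfbp6, chr15:102143936-102144185: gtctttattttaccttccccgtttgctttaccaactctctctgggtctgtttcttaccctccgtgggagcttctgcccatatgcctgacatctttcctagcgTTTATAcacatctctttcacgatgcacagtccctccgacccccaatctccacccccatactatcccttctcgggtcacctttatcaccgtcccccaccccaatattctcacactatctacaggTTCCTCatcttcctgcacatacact
The first base of the PU box lay at -60 from the Igf1 start site, which is 2846 bases inside the annotated gene. The TATA box of Igfbp4 lay at -28, and the Igf1r window held GC boxes at -43 and -26. The Igfbp6 window held a TATA box at -148 and a PU box at -25, both on the minus strand. Among all 32851 windows of the same length, the PU box was present in 28.3%, against 3 of the 9 windows of these genes. The TATA box was present in 13.6% against 2 of 9, the GC box in 35.7% against 3 of 9, and the AP-1 site in 5.2% against 1 of 9. These matches are descriptions of letters in a window. The Igf1r, Igfbp3, Igfbp4 and Igfbp7 windows were rich in G and C, at 76%, 71.7%, 71.3% and 73.3%, against a median of 52.7% over all windows. The Igf1 and Igfbp6 windows, at 52.3% and 49.7%, lay close to that median. Igfbp2 and Igfbp5 are neighbours on chromosome 1, where 5590 bases separate them.

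The deposited values were returned to normalized counts, and reads were recovered from them. Recovered depth was 12198036 reads in the library with the column-name prefix MET_EL061301 and 16526375 to 20453901 in the others, with a median of 18082583. The other libraries carried the prefixes Whe10 (4 libraries) and Whe3 (4 libraries), whose meaning the labels do not state. In the text a library is called by its prefix and the number that follows it, such as Whe10-7A. Xist was at 29664 to 32912 normalized counts in the Whe10 libraries and at 0 to 8.39 in the other 5, and Ddx3y, a gene of the Y chromosome, was at 0 in Whe10, so sex and prefix cannot be told apart. Mettl3 was at 2184 normalized counts in the MET library, 573 ± 51.1 (SD, n = 4) in Whe10 and 485 ± 14.5 (SD, n = 4) in Whe3. The labels call the cells fibroblasts. All 14 fibroblast markers were listed and 13 were above the floor of 3 reads in every library, summing to 176000 to 293033 normalized counts in Whe10, 325669 to 588445 in Whe3 and 574674 in MET. All 16 macrophage markers were listed too, with 15 above the floor in every library, and summed to 751967 to 866119 in Whe10, 585997 to 921602 in Whe3 and 708417 in MET. Of the 7 epithelial markers 6 were listed and 3 (Cdh1, Krt19 and Muc1) were above the floor in every library, with sums of 27.5 to 199 normalized counts, and Epcam was at 0 in all 9 libraries. None of the 6 islet markers was listed. The libraries are bulk RNA, so fewer cells of a type and less RNA per cell cannot be told apart. Nothing in the labels says that the libraries came from separate animals, and p-values measure only the spread between these samples.

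Igf1, the ligand, was abundant in every library (ENSMUSG00000020053, chromosome 10, 87858265 to 87937047, GRCm38). Its level was 6843 normalized counts in the MET library. In the Whe10 libraries 7A, 8A, 10A and 11A it was 14320.5, 12337, 16014 and 11688.5, and in the Whe3 libraries 5A, 7A, 11A and 12A it was 13829, 11211.5, 8462 and 6656. The Whe10 libraries were all at or above the median of 11688.5, whereas Whe3 spread from the lowest value of all to one among the highest, so the prefixes overlapped. Over the 9 libraries the mean was 11262 ± 3325 (SD), a 2.41-fold range. The other ligands were near the floor or not listed. Igf2, the fetal growth factor, was at 12.9 ± 8.04 normalized counts (SD, n = 9) and at most at 15 reads, and neither insulin gene was listed. The fewest Igf1 reads in a library were 3127, in MET, so counting error was small beside the spread between libraries.

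The receptor Igf1r (ENSMUSG00000005533, chromosome 7, 67952257 to 68233668) was at 1770.4 normalized counts in MET. It was 999.8, 2174, 1695 and 1747 in the Whe10 libraries, and 2491, 1855, 1758 and 2646 in the Whe3 libraries, in the same order as above. Whe10-7A was the lowest and Whe3-12A the highest, and these same libraries were among the highest and the lowest for Igf1. The mean was 1904 ± 487 (SD, n = 9). Igf2r, which takes IGF2 into lysosomes, was at 6103 ± 1668, and Insr, the insulin receptor, at 1132 ± 55.3 with a range of only 1.15-fold. Insrr, the orphan receptor of the family, was not listed.

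Of the binding proteins, Igfbp7 and Igfbp4 were abundant in every library, at no fewer than 2169 reads. Igfbp4, an inhibitor of IGF action that pappalysin cleaves (ENSMUSG00000017493, chromosome 11, 99040005 to 99052655), was lowest in MET, at 4746. It reached 13813, 8512, 12663 and 9649 in Whe10 and 9423, 13302, 8341 and 7535 in Whe3. High libraries thus occurred under both prefixes, and MET stood below all the others. Igfbp7, a secreted protein of vessel walls and matrix that binds IGFs weakly (ENSMUSG00000036256, chromosome 5), was at 11983 in MET. It was 11942, 26088, 21458 and 20025 in Whe10 and 21135, 18013, 18682 and 23268 in Whe3. Here MET and Whe10-7A were low and the other 7 libraries lay close together, and the range was 2.18-fold.

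Igfbp6, which prefers IGF2 (ENSMUSG00000023046, chromosome 15, 102144186 to 102149512), was at 2587 normalized counts in MET. In Whe10 it was 887, 1211, 1381 and 651, and in Whe3 it was 2373, 2084, 1231 and 2650.5. The Whe10 libraries were low and 3 of the Whe3 libraries were high, and the prefixes overlapped only through Whe3-11A. The mean was 1673 ± 759 (SD, n = 9).

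Igfbp2 and Igfbp3 varied most among the well-detected members. Igfbp2, a binding protein with an integrin-binding motif that is often raised in tumors (ENSMUSG00000039323, chromosome 1), was at 4762 in MET. It was 1596, 7003, 7316 and 599.5 in Whe10 and 11971, 2057, 2275 and 2473 in Whe3. The highest library, Whe3-5A, held 20-fold more than the lowest, Whe10-11A, and both prefixes held high and low libraries. Whe3-5A was also the library with the most acinar transcripts, whose 6 markers summed to 2415 normalized counts there and to 144 to 396 in the other 8. The part of these cells in the Igfbp2 value was not tested. Igfbp3, the main carrier of IGF1 in blood (ENSMUSG00000020427, chromosome 11), was at 720.0 in MET, at 1117, 564, 909 and 157 in Whe10 and at 866, 2466, 1040 and 179.5 in Whe3. Whe3-7A stood above the rest, and the lowest libraries were Whe10-11A and Whe3-12A, 1 under each prefix. The range was 15.7-fold.

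Igfbp5, a matrix-bound binding protein of mesenchymal cells (ENSMUSG00000026185, chromosome 1), was low except in a single library. It was 13.1 normalized counts (6 reads) in MET, 18.8, 17.7, 259.6 and 45.6 in Whe10, and 18.2, 17.7, 9.05 and 4.68 in Whe3. Whe10-10A, with 204 reads and a Wilson 95% interval of 226.3 to 297.7 normalized counts, stood apart from a median of 17.7. Whe3-12A was at 3 reads, which is the floor, and 8 of the 9 libraries were above it. Intervals cover counting error only. Igfbp1, Igfbpl1 and Igfals, the acid-labile subunit of the serum complex, were not listed.

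**Figure D1:**
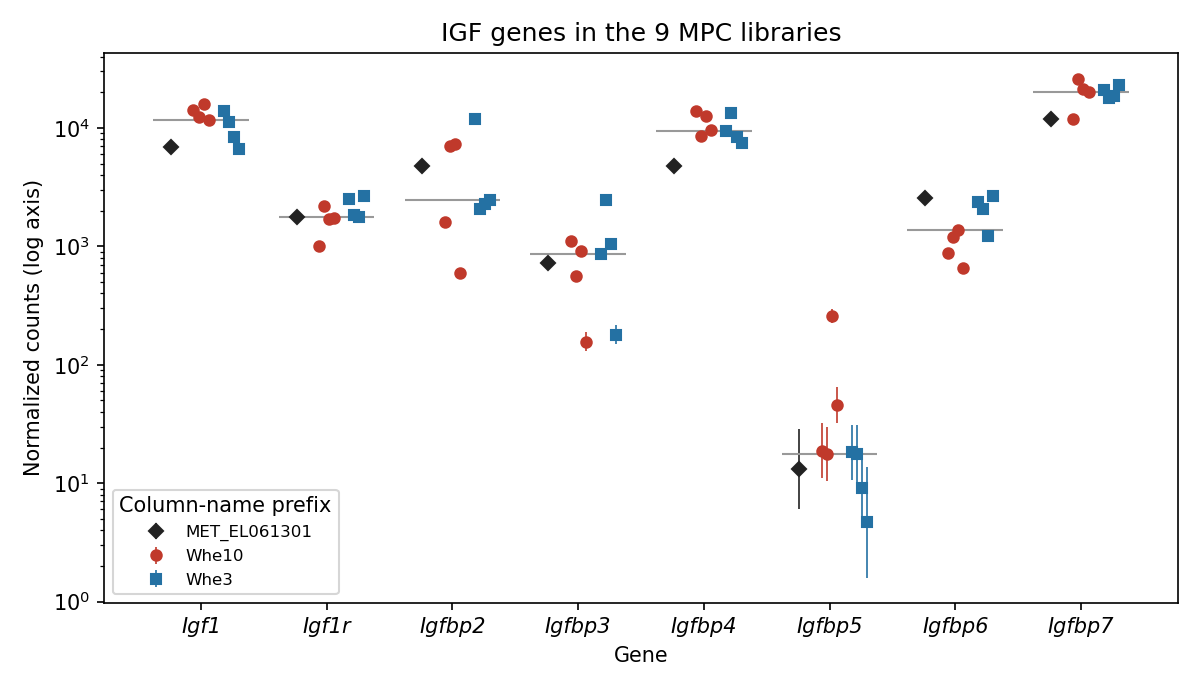
Normalized counts (log axis) of the 8 genes in each of the 9 libraries, 1 point per library, with colour and shape giving the column-name prefix, vertical bars the Wilson 95% counting interval and grey lines the median. Igfbp2 and Igfbp3 spread over more than 10-fold, and the Igfbp5 value of Whe10-10A, 259.6, stands above the others of that gene.

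The spread of each gene over the clones was set beside that of genes with a mean within 2-fold of its own. The SD of log2(normalized counts + 1) was 1.34 for Igfbp2 and 1.27 for Igfbp3, above that of 99.3% of 2032 genes and 98.8% of 4862 genes of like level. Igfbp6 had an SD of 0.72, above 96.8% of its 4304 genes. The SD of Igf1 was 0.46, of Igf1r 0.41 and of Igfbp4 0.48, above 87.3%, 89.4% and 88.8% of the genes of like level. Igfbp7 was the least variable of the 8 on this scale, with an SD of 0.39, and 77.8% of 311 genes of like level had a smaller one. All 8 members therefore varied more between clones than the median gene of their level, which had an SD of 0.16 to 0.23 for the 7 members other than Igfbp5 and 0.55 for Igfbp5.

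The prefixes were compared because they are the only split that the column names carry. With limma on log2(normalized counts + 1), 29 of 16985 genes, or 0.171%, differed between Whe10 and Whe3 at an adjusted p under 0.05, and 0 of the 8 members did. Over all genes 3141 had an unadjusted p under 0.05, among them Igfbp6 and Igfbp5. Igfbp6 averaged 1032 ± 327 normalized counts in Whe10 and 2085 ± 614 in Whe3 (SD, n = 4 each), a log2 difference of -1.02 (SE 0.29, limma adjusted p = 0.17). Igf1 averaged 13590 ± 1966 and 10039.5 ± 3145, a log2 difference of 0.48 (SE 0.22, limma adjusted p = 0.28). For Igfbp5 the log2 difference was 1.94 with a 95% interval of 0.03 to 3.85, and it fell to 1.11 when Whe10-10A was left out. Igf1r (-0.43) and Igfbp4 (0.22) differed by less than 0.5 on the log2 scale, and the intervals of both held 0. Igfbp7 showed the smallest difference, -0.08 with an interval of -0.58 to 0.43. For Igfbp2 and Igfbp3 the intervals ran from -2.39 to 1.64 and from -2.45 to 1.37, so that a 2-fold difference in either direction was not excluded with 4 libraries a side.

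**Figure D2:**
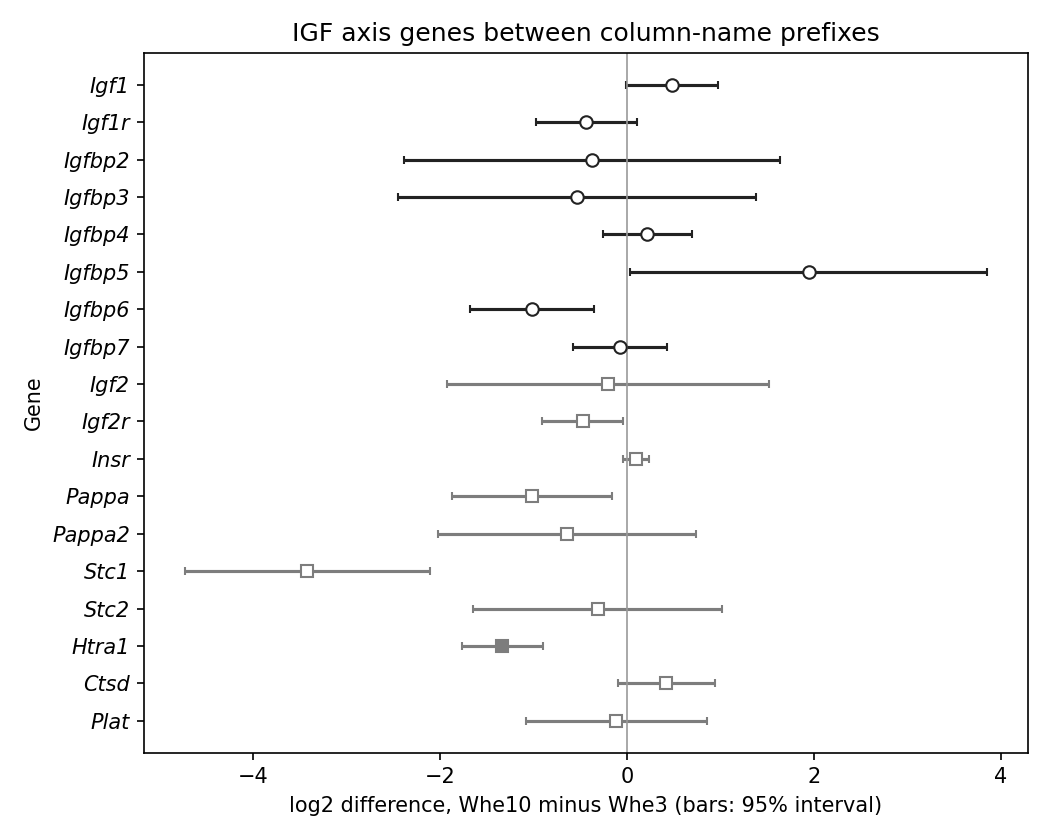
log2 difference between the 4 Whe10 and the 4 Whe3 libraries (horizontal axis, Whe10 minus Whe3) for the 8 members (black circles) and for other ligands, receptors, proteases and inhibitors of the axis (grey squares), with limma 95% intervals; filled symbols have an adjusted p under 0.05. Htra1 alone is filled, at -1.33.

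Of the 7 genes for proteases and inhibitors that act on the binding proteins, 1 was lower in Whe10 and none higher. This was Htra1, a secreted serine protease that cuts IGF binding proteins, at 2818 ± 658 normalized counts in Whe10 and 7062 ± 1480 in Whe3 (SD, n = 4 each; log2 difference -1.33, limma adjusted p = 0.047), without overlap between the prefixes. The call was lost without the trend and with voom, and on leaving out any of the 8 libraries but Whe3-5A (limma adjusted p = 0.058 to 0.13). The median log2 difference of the 7 was -0.64, against 0.02 over all genes tested. Stc1, stanniocalcin 1, an inhibitor of pappalysin, was at 0 to 4.27 normalized counts in Whe10, 22.4 to 48.7 in Whe3 and 216.6 in MET, and its difference of -3.42 missed the threshold (limma adjusted p = 0.076). Pappa, the pappalysin that cleaves IGFBP4, was at 1923 ± 785 in Whe10 and 3667 ± 990 in Whe3, with a log2 difference of -1.02 (limma adjusted p = 0.22). None of the ligands, receptors or binding proteins, the 9 receptor adaptors tested, the 17 genes of the PI3K-AKT-mTOR arm and the 6 of the growth hormone arm passed.

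Markers of macrophages and fibroblasts differed in amount between the clones, and the members were set against them. A score was the mean z-score over the libraries of log2(normalized counts + 1) of the 16 macrophage or the 14 fibroblast markers, neither of which holds a member. The macrophage score ran from -1.31 in Whe3-12A to 1.03 in Whe10-7A, and the fibroblast score from -0.96 in Whe10-7A to 0.94 in MET. Not every marker followed its score. Each marker is part of its own score, so a rise with it is partly built in and is no support for the score. At a limma adjusted p under 0.05, 11 of the 16 macrophage markers rose with their score and 0 fell. Cd14 and Lyz2 had slopes of -0.016 and 0.19. Of the 14 fibroblast markers 9 rose with their score and 0 fell, but Dcn and Lum had slopes of -1.24 and -1.59. Whe3-7A had the highest sum of macrophage markers, 921602, at a score of 0.29. The scores ran against each other (r = -0.791, exact permutation p = 0.012, n = 9), so a relation with the one is not separate from a relation with the other. The fibroblast scores of Whe10 and Whe3 did not overlap, so that this score carries the prefix as well. The macrophage scores overlapped only through Whe3-7A, at 0.29. They ran from 0.08 to 1.03 in Whe10 and from -1.31 to -0.21 in the rest of Whe3. The macrophage score thus carries the prefix in large part too. Of the 16 relations of members with scores, 8 had an exact two-sided permutation p under 0.05 over all 9 libraries and 4 after centring within the Whe10 and Whe3 prefixes (n = 8). The share of all genes under this test was not computed, so nothing is read from these counts. By limma slopes over the 9 libraries, 31.2% of all genes had an unadjusted p under 0.05 on the macrophage score and 31.7% on the fibroblast score. With prefix as a term these shares were 15.5% and 6.79%.

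Igf1 rose with the macrophage score. The correlation was r = 0.862 (exact permutation p = 0.0031, n = 9) and Spearman's rho = 0.817 (exact permutation p = 0.011). It was 0.773 (exact permutation p = 0.041, n = 7) without the pair of libraries farthest from the median score, and 0.844 (exact permutation p = 0.038, n = 8) within prefixes. In Whe3 the order of the libraries by Igf1 differed from that by score only in that 5A, with a score of -0.21, held more Igf1 than 7A, with 0.29. In a limma fit over the 14705 genes whose mean reached 10 normalized counts, Igf1 rose by 0.51 log2 units per unit of score (SE 0.10, limma adjusted p = 0.020). It was the 1 of the 8 members that passed. By the same rule 1759 genes, 12% of those tested, passed, so the share of members called was near that of all genes. An unadjusted p under 0.05 was reached by 5 of the 8 members and by 31.2% of all genes. The Igf1 call was lost without Whe10-7A, Whe10-10A or Whe3-12A (limma adjusted p = 0.056, 0.081 and 0.12) and with prefix as a term (0.21, where the slope was 0.51).

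Igfbp4 and Igfbp5 had positive correlations with the macrophage score as well. For Igfbp4 r was 0.727 (exact permutation p = 0.024, n = 9), rho 0.883 (exact permutation p = 0.0031), and r within prefixes 0.935 (exact permutation p = 0.0035, n = 8). Without the pair of farthest libraries it was 0.701 (exact permutation p = 0.069, n = 7). Over all genes its slope of 0.45 missed the threshold (SE 0.14, limma adjusted p = 0.068), and it passed when the MET library, where Igfbp4 was lowest, was left out (limma adjusted p = 0.035). For Igfbp5 r was 0.759 (exact permutation p = 0.011, n = 9) and rho 0.90 (exact permutation p = 0.0020), but r within prefixes was 0.540 (exact permutation p = 0.15, n = 8), and 7 of its 9 libraries held 3 to 14 reads. Igf1r ran the other way, with r = -0.678 (exact permutation p = 0.039, n = 9) and -0.564 (exact permutation p = 0.15, n = 8) within prefixes. Leaving out each library in turn gave -0.754 to -0.541. Without the pair of farthest libraries r was -0.208 (exact permutation p = 0.66, n = 7), so the relation was weak once both of those were left out. Igfbp2, Igfbp3 and Igfbp7 had correlations of -0.130, 0.314 and -0.207 with this score, none with an exact permutation p under 0.05 (n = 9). Within prefixes these were 0.067, 0.775 (exact permutation p = 0.054, n = 8) and -0.583 (exact permutation p = 0.063, n = 8), and leaving out each library in turn moved Igfbp3 between -0.048 and 0.606.

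**Figure D3:**
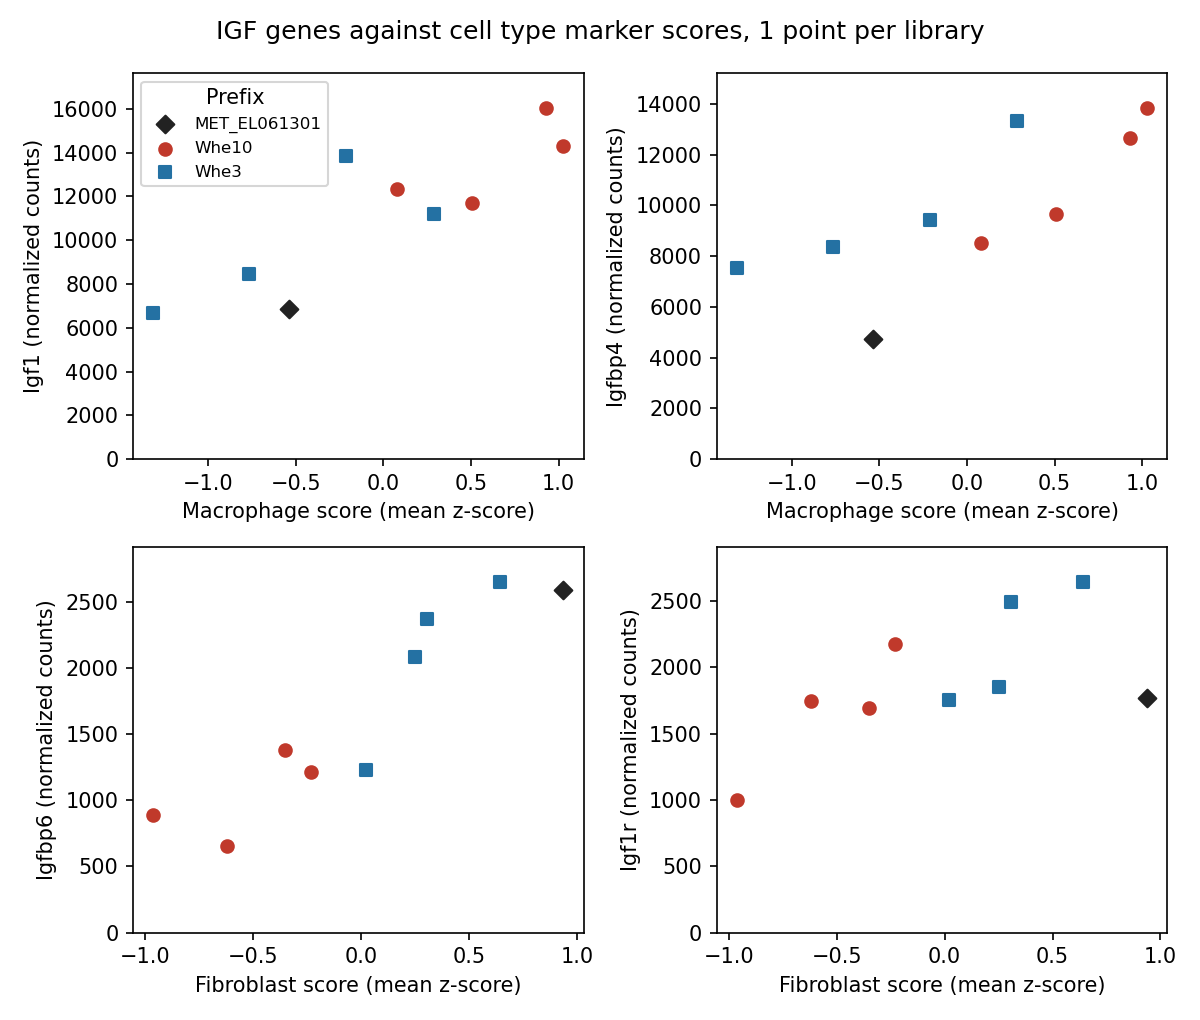
Normalized counts of Igf1 and Igfbp4 against the macrophage score and of Igfbp6 and Igf1r against the fibroblast score, 1 point per library, with colour and shape giving the prefix. Igf1 runs from 6656 in the library with the lowest macrophage score to 14320.5 and 16014 in the 2 with the highest, and the MET library falls below the others in the Igfbp4 panel.

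Igfbp6 rose with the fibroblast score. The correlation was r = 0.906 (exact permutation p = 0.0011, n = 9) and rho = 0.917 (exact permutation p = 0.0013), and 0.928 (exact permutation p = 0.0058, n = 7) without the pair of farthest libraries. Leaving out each library in turn gave 0.885 to 0.924. Within prefixes it was 0.728 (exact permutation p = 0.082, n = 8). Over all genes Igfbp6 rose by 1.08 log2 units per unit of score (SE 0.17, limma adjusted p = 0.014), as the 1 of 8 members that passed, and 10.0% of all genes passed by the same rule, so the share of members called was again near that of all genes. An unadjusted p under 0.05 was reached by 4 of the 8 members and by 31.7% of all genes. The call was lost without Whe10-7A (limma adjusted p = 0.068) and with prefix as a term (0.65, where the slope was 1.22). Igf1r had r = 0.659 (exact permutation p = 0.048, n = 9) over all libraries and 0.903 (exact permutation p = 0.0035, n = 8) within prefixes, and the MET library, with the highest score and a middle Igf1r level, lay off the trend of the rest. Without Whe10-7A, the library lowest in both, the Igf1r value was 0.381 (exact permutation p = 0.35, n = 8), and without the pair of farthest libraries it was 0.730 (exact permutation p = 0.071, n = 7). Igfbp7 had r = 0.012 over the 9 libraries and 0.884 (exact permutation p = 0.0052, n = 8) within prefixes. Its value over the libraries ran from -0.542 without Whe10-7A to 0.557 without MET, the libraries in which Igfbp7 was low. Igf1 and Igfbp4 had correlations of -0.739 (exact permutation p = 0.025, n = 9) and -0.718 (exact permutation p = 0.026, n = 9) with the fibroblast score, which were -0.243 and -0.474 within prefixes.

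**Figure D4:**
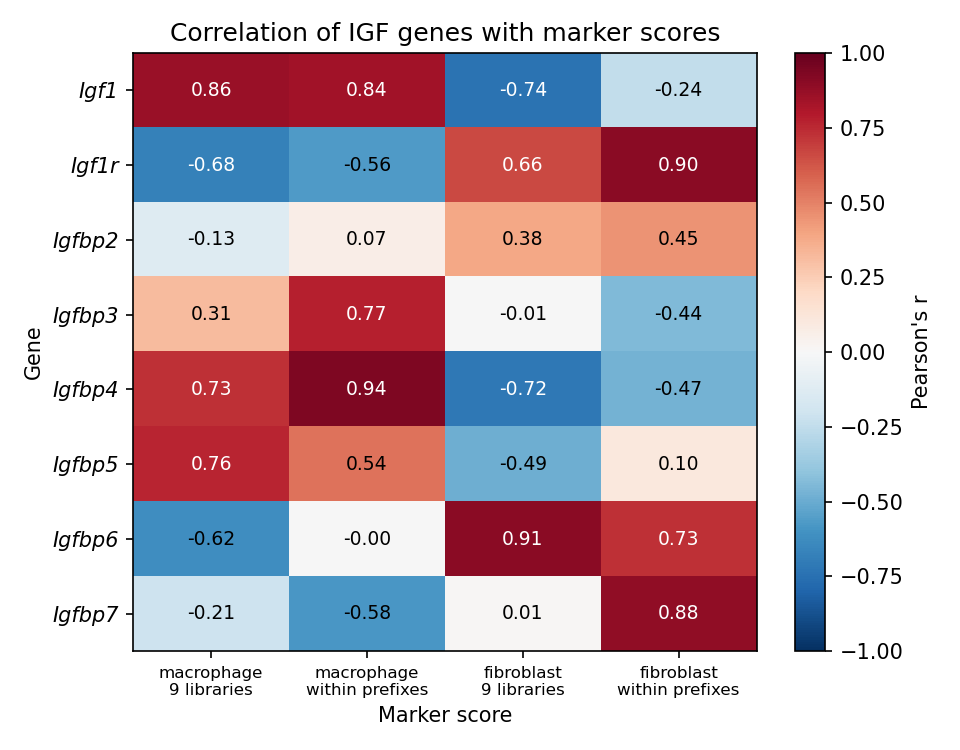
Pearson's r of each of the 8 genes with the macrophage and the fibroblast score, over the 9 libraries and over the 8 libraries of Whe10 and Whe3 after centring within prefixes; red is positive and blue negative. Igf1 and Igfbp4 are positive with the macrophage score in both columns, and Igfbp7 changes from 0.01 to 0.88 with the fibroblast score.

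Among the members themselves, 3 of 28 pairs had an exact permutation p under 0.05 over the 9 libraries. The share over all pairs of genes was not computed, so nothing is read from this count. Igf1 varied with Igfbp4 (r = 0.787, exact permutation p = 0.0089, n = 9) and with Igfbp5 (r = 0.716, exact permutation p = 0.019, n = 9). Within prefixes these were 0.652 (exact permutation p = 0.10, n = 8) and 0.603 (exact permutation p = 0.040, n = 8). Igf1r varied with Igfbp7 (r = 0.726, exact permutation p = 0.023, n = 9), and within prefixes the value was 0.961 (exact permutation p = 0.0069, n = 8). The ligand and its receptor had r = -0.357 (exact permutation p = 0.36, n = 9). The neighbouring genes Igfbp2 and Igfbp5 had r = 0.133 (exact permutation p = 0.73, n = 9).

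Other genes of the pathway were followed along the same scores by limma, and their counts are to be read against the 12% and 10.0% of all genes that passed on the macrophage and the fibroblast score. Of the 9 receptor adaptors tested, Grb2, which couples receptors to Ras, rose with the macrophage score (slope 0.27, limma adjusted p = 0.036) and fell with the fibroblast score (-0.38, limma adjusted p = 0.021). Shc1, another adaptor of the receptor, rose with the fibroblast score (0.20, limma adjusted p = 0.024). Of the 3 receptors tested, Igf2r rose with the fibroblast score (0.51, limma adjusted p = 0.048). Of the 6 proteases and inhibitors tested, Htra1 (slope 0.999, limma adjusted p = 0.047) and Stc1 (3.19, limma adjusted p = 0.034) rose with the fibroblast score, and the median slope of the 6 was 0.75. Over all 14705 genes the median slope was -0.0203 on the fibroblast score and 0.016 on the macrophage score. In the growth hormone arm, which controls Igf1 in liver, Stat5b rose with the macrophage score (0.20, limma adjusted p = 0.039) and Jak2 with the fibroblast score (0.39, limma adjusted p = 0.027), 1 of 6 genes each. None of the 17 genes of the PI3K-AKT-mTOR arm passed on either score, and their median slopes were 0.06 and -0.05. Each of these 8 calls was lost without Whe10-7A, without Whe3-12A and with prefix as a term, and without the first or the second of these libraries the limma adjusted p ran from 0.058 for Grb2 to 0.18 for Igf2r. The 6 on the fibroblast score were also lost without MET. With prefix as a term, 0 genes passed on either score in limma, with 2276 and 999 at an unadjusted p under 0.05.

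The genes whose log2 values ran most like each member over the 9 libraries were named as a description, among 12300 genes whose mean reached 50 normalized counts. For Igf1 they were Etv3, a transcriptional repressor (r = 0.991), and Iffo1 (r = 0.988), and 581 genes had r over 0.9. For Igf1r they were Crip2 (r = 0.966) and Dlc1 (r = 0.955), with 26 genes over 0.9. For Igfbp4 they were Nckipsd (r = 0.987) and Cox14 (r = 0.972), with 87 genes over 0.9, and for Igfbp6 Dhx33 (r = 0.984) and Adm2, a peptide of the adrenomedullin family (r = 0.966), with 30. Igfbp2 was most like Nkd1 (r = 0.925), an inhibitor of Wnt signalling, and Tnfrsf11b (r = 0.924), the decoy receptor osteoprotegerin, with 5 genes over 0.9. Igfbp3 was most like Wbp1 and H2-DMb1, Igfbp5 like Zfp944 and Spin1, and Igfbp7 like Aff3 and Pcbd1, at r of 0.919 to 0.960, and 2, 3 and 10 genes exceeded 0.9. All genes of a library share its depth and cell composition, and nothing is drawn from these values about shared control.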

How the data were processed

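RNA of 9 WTg clones was sequenced from stranded mRNA libraries. The submitters' processing notes name FastQC 0.11.9, STAR 2.7.10, RSEM 1.3.3 and GRCm38. The authors deposited log2 values of reads scaled by 1 factor per library plus an offset of 4, for 18049 genes. The software of that scaling is not given in the sources used here. Normalized counts were computed as 2 to the power of the value, minus 4. Whole reads were recovered from the spacing of low values for 100% of values under 1000 reads (tolerance 0.05 reads), and 1 read was worth 1.26 to 2.19 normalized counts, so that the floor of 3 reads was 3.79 to 6.56. The 9 columns name no sample title and were used as replicates of WTg, and 6 other columns of per-sample values were not used.

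Members, lists and tests were chosen with earlier results of these data known. The named genes were the 8 members, the genes of the axis lists, the 2 genes most like each member, and markers that move with a result. The split by prefix was tested with limma 3.58.1 (lmFit and eBayes with trend, R 4.3.3) on log2(normalized counts + 1) for genes with a mean of at least 1, and slopes on the scores for genes with a mean of at least 10, all with Benjamini-Hochberg adjustment over all genes tested. The slopes were added after the data were seen. Correlations were computed with NumPy 2.4.6, with ranks from SciPy 1.17.1. They were tested exactly and two-sided by permutation, as 16 relations with scores and 28 among members. All pairings of the libraries entered, but after centring within prefixes only pairings inside a prefix did. The p-values of these correlations are unadjusted, and a planned adjustment over the listed relations alone is not printed. Levels of different genes were not tested against each other, because exon lengths were not used here. Words such as abundant or low, and the sums of marker lists, refer to normalized counts or reads without a correction for length. Tests were also run on simulated data, in which genes or values were drawn independently of each other. In the real libraries all genes share cell composition, so those runs do not show how the tests behave on them. The alternatives were another pseudocount, filter and scaling, voom, centring within prefixes, and leaving out libraries.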

Additional observations from a re-analysis of the deposited data

Results flagged for a closer look

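Of 50 genes of the axis examined for a library far from the others among the 9, 5 were past Dixon's critical value at 95%. Normally distributed values would give about 2.5 (1 in 20). The values used were normalized counts without a log, and whether they were normally distributed was not tested. The 5 are therefore not read as an excess, and the log2 scale was not examined. The quantity given is the gap from the extreme library to its neighbour divided by the whole range. Igfbp5 had a value of 0.840, from Whe10-10A at 259.6 normalized counts against 45.6 in the next library. Igfbp3 had a value of 0.584, from Whe3-7A at 2466 normalized counts. In the MET library Stc1 stood apart with a value of 0.775 (216.6 normalized counts), and Plat, the tissue plasminogen activator, with 0.592 (2679 normalized counts). Ghr, the growth hormone receptor, had a value of 0.530, from Whe10-8A at 2246 normalized counts. The MET library was also the shallowest and held the most Mettl3, and the part of either in the Stc1 and Plat values was not tested.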

How the results depend on the processing

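No paired analysis was possible because all 9 libraries belong to 1 group. The numbers 7A and 11A recur under different prefixes in the column names, but no label ties them to a shared animal, batch or day. The planned order of the members by level per length was not run, since no exon or protein lengths were used here. Of 341 alternative values for 44 results, 288 were labelled the same. For tested values this meant the same direction and side of the threshold, also where both missed it. For levels it meant a move smaller than the SD over the libraries. For counts of calls it meant a change within a set fold, so a count could move and keep this label. None of the members was called between prefixes under any alternative. Without the trend 17 genes were called between prefixes, and leaving out each library in turn gave 10 (without Whe10-10A or Whe3-7A) to 263 (without Whe3-5A). The log2 difference between prefixes changed sign on leaving out a library for Igfbp2 (-0.86 to 0.34), Igfbp3 (-1.25 to 0.062) and Igfbp7 (-0.23 to 0.15). The number of relations with scores at an exact p under 0.05 fell from 8 to 4 within prefixes and 3 without the 2 farthest libraries. Weak correlations changed sign within prefixes for Igfbp2 with the macrophage score (0.067) and Igfbp5 with the fibroblast score (0.102). Without the 2 farthest libraries they did so for Igfbp3 with the macrophage score (-0.187) and the fibroblast score (0.158), and for Igfbp7 with the macrophage score (0.451) and the fibroblast score (-0.0045). With a pseudocount of 0.1 that of Igfbp3 with the fibroblast score was 0.0031. Genes called with a slope numbered 15 to 1851 on the macrophage score and 2 to 1958 on the fibroblast score when each library was left out, the fewest without Whe3-12A and without Whe10-7A. The macrophage count was also low without Whe10-10A (29) and Whe10-7A (351), and the fibroblast count without Whe3-12A (292), Whe10-10A (672) and Whe10-8A (755). It was 115 on the fibroblast score without MET, and both were 0 with prefix as a term, with 2276 and 999 genes at an unadjusted p under 0.05 in limma. The causes were not tested. Depth limited Igfbp5, Igf2 and Stc1, whose low libraries held few reads.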
